A study of Mus musculus with 20 samples.

Results

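The contractile genes of smooth muscle were examined as a list of 31 genes, taken by symbol from the 24062 genes in the deposited count tables. The list holds the filament proteins of the contractile apparatus, the enzymes and ion channels that regulate it, its transcription factors, and the intermediate filament and adhesion proteins that anchor it. All 31 were found in the tables, and all 31 passed the filter on low counts. RNA-seq of total RNA without ribosomal RNA was done on whole mouse lung. The study asked how chronic hypoxia changes the lung transcriptome with and without Arg2, the mitochondrial arginase, in a model of pulmonary hypertension.

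The 4 groups had 4 samples each. They were Arg2-/- lungs after hypoxia, wild type lungs after hypoxia, Arg2-/- lungs in room air and wild type lungs in room air. Hypoxia meant 28 days at 10% O2, and room air meant 21% O2. All mice were of a C57/129 background and 8 to 10 weeks old, and the labels name both sexes. The sources used here do not give which part of Arg2 was deleted. The labels do not state that each number is a separate animal, so p-values measure only how these samples spread.

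Smooth muscle cells surround pulmonary arteries, veins and airways. Their force comes from myosin filaments pulling on actin filaments, and it is switched on when a calcium-dependent kinase phosphorylates the regulatory light chain of myosin. A phosphatase reverses that step. Most genes of the apparatus are driven by serum response factor together with myocardin, through a short DNA element called the CArG box. Chronic hypoxia is known to thicken the muscle layer of small pulmonary arteries in mice. In whole lung, fewer smooth muscle cells and less RNA per cell cannot be told apart.

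Between 9531270 and 63331530 reads per sample were counted in genes, with the lowest total in wild type room air 3. Of reads counted either in genes or outside any gene, that sample also had the lowest share in genes, 25.4%, against up to 64.16% elsewhere. Reads with several alignments are not part of that share. In CPM, counts scaled to library size, Arg2 itself read 4.57, 3.22, 5.37 and 3.97 in knockout hypoxia samples, 6.33, 11.7, 10.0 and 9.13 in wild type hypoxia samples, 4.58, 5.26, 4.88 and 7.78 in knockout room air samples and 8.47, 9.14, 11.8 and 7.30 in wild type room air samples. In room air the knockout and wild type ranges overlapped, so the gene is a weak check of the labels there. Y-linked counts exceeded Xist counts in all 16 samples, although the labels name both sexes.

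Markers of other tissues were high in several samples, and 2 of those tissues share genes with the list. Skeletal muscle markers summed to 1714.7 CPM in wild type room air 1, against 63.8 CPM or less in each other sample. Heart muscle markers summed to 195 to 419 CPM in knockout hypoxia samples, 278 to 444 CPM in wild type hypoxia samples, 460.3 to 1076 CPM in knockout room air samples and 375 to 667 CPM in wild type room air samples. The highest heart sum belonged to knockout room air 3 and the next to wild type room air 1. Heart markers were thus present in every sample, and whether they came from within the lung was not tested. Pancreas markers reached 1157 CPM in knockout hypoxia 1 and 90.3 CPM in knockout hypoxia 2. Thymus markers summed to 70.5 CPM in knockout room air 3 and 57.3 CPM in knockout room air 4, against 5.77 CPM or less elsewhere. For hypoxia in knockout lungs and for genotypes in hypoxia, counts of called members are given with and without these 5 samples. The defining smooth muscle markers Acta2, Myh11, Cnn1 and Tagln were well above their detection floor in every sample, with sums of 490.04 to 727 CPM in knockout hypoxia samples, 608 to 832 CPM in wild type hypoxia samples, 541 to 636 CPM in knockout room air samples and 509 to 723 CPM in wild type room air samples.

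The list as a whole did not move in 1 direction after hypoxia, and single members moved in each. A gene was called when its adjusted p in edgeR's quasi-likelihood test fell under 0.05, and fold changes are on the log2 scale with their standard error. In knockout lungs, hypoxia against room air called 7 of 31 members, or 22.6%, where the background over all genes tested was 17.0%. Of these, 1 member was higher, against 7.93% of all genes, and 6 were lower, against 9.10% of all genes. Myl9 rose and Cnn1, Synpo2, Actg2, Synm, Vcl and Srf fell. In wild type lungs, hypoxia against room air called 5 of 31 members, or 16.1%, against a background of 4.98%. There, 3 members were higher and 2 lower, against 2.67% and 2.31% of all genes. Pcp4l1, Cald1 and Myl9 rose, while Synm and Srf fell. The median log2 fold change of the 31 members was -0.02 in knockout lungs and 0.01 in wild type lungs, beside 0.00 and -0.01 over all genes.

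By edgeR on all samples, 9 members were called between genotypes in hypoxia and 0 in room air. Over all genes the calls were 3633 in hypoxia and 12 in room air. Knockout against wild type in hypoxia called 9 of 31 members, or 29% of the list, against a background of 23.0%. All 9 were lower in knockout lungs, where 12.1% of all genes were lower and 11.0% higher. They were Pcp4l1, Synpo2, Des, Cnn1, Myh11, Mylk, Ppp1r12b, Flna and Vcl. The median member stood at -0.21, beside -0.01 over all genes, and 23 of 31 members had a negative estimate. The median was -0.13 without knockout hypoxia 4 and -0.34 without the 5 samples high in markers of other tissues. Without only knockout hypoxia 1, which is among those 5, the median was -0.28. The count of called members depended on single samples too. It was 2 without knockout hypoxia 4, 3 without knockout hypoxia 2, 4 without wild type hypoxia 4, and 5 without knockout hypoxia 3 or without wild type hypoxia 2. It was 3 with a GC trend removed or with total counts as the only scaling. Over all genes, leaving out 1 sample gave 2093 to 4337 calls, against 3633 of 15766 with all samples. Pcp4l1 and Synpo2 were the members called under all 30 alternatives. Leaving out the 5 samples high in markers of other tissues kept 2 knockout and 4 wild type samples in hypoxia. Then 7 members were called, 6 of them as before and Hspb6 (-1.14) in addition. Flna (-0.36), Vcl (-0.34) and Ppp1r12b (-0.25) were then not called, at estimates against -0.29, -0.28 and -0.29 with all samples.

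In room air, edgeR called 0 of 31 members between knockout and wild type, against a background of 0.0761%. At an unadjusted p under 0.05 there were 5 members, or 16.1%, against 21.6% of all genes, and DESeq2 and limma voom each called 1, Ppp1r12b. Without wild type room air 3, the shallowest sample, 3 members were called, beside 2198 of all genes. The knockout had more Cald1 there (0.42), and less Flna (-0.31) and Ppp1r12b (-0.29). The difference between the hypoxia effects of the genotypes was called by edgeR for 0 of 31 members, against a background of 0.501%. An unadjusted p under 0.05 was reached by 5 members, or 16.1%, a share near the 14.1% of all genes. DESeq2 called 1 member, Pcp4l1, and limma voom called 0. A call in 1 genotype and not in the other is therefore not a shown difference for any member under the edgeR test.

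**Figure D1:**
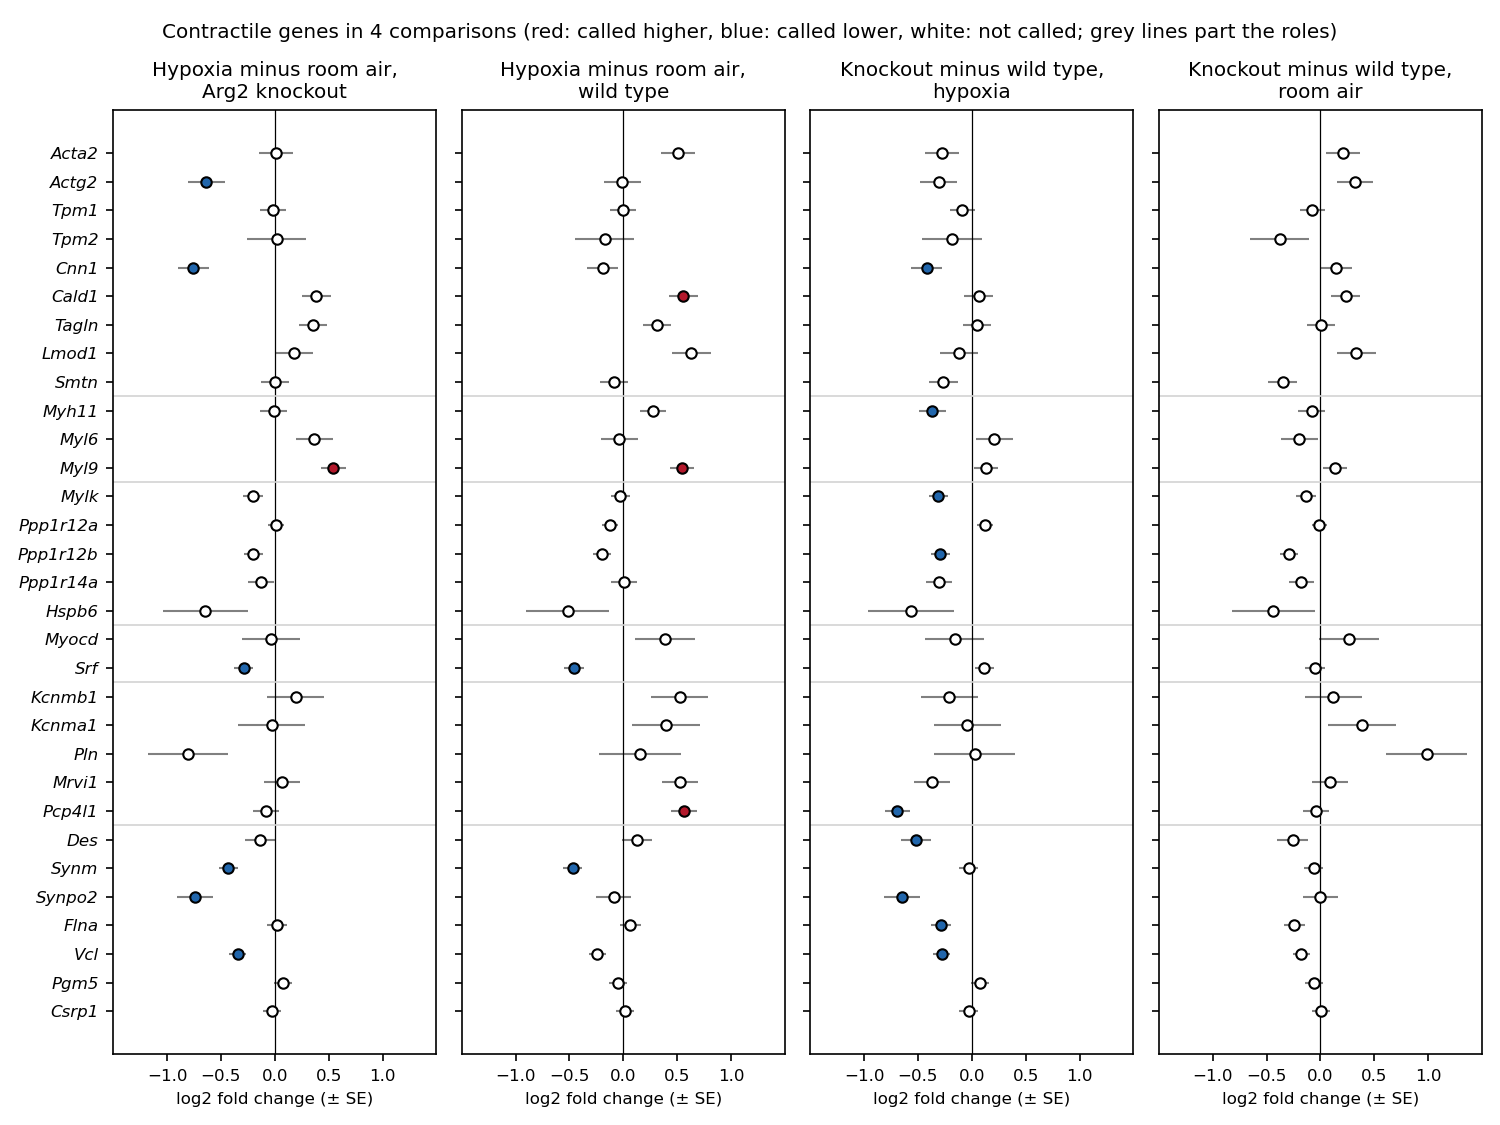
Each point is a member's log2 fold change with its standard error (horizontal axis), in rows grouped by role, for 4 comparisons among groups of 4 samples. Red points are called higher and blue points called lower. The panel of genotypes in hypoxia holds 9 blue points and no red ones, and the panel of genotypes in room air holds white points only.

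Among thin filament genes, Cnn1 and Actg2 fell after hypoxia in knockout lungs and Cald1 rose in wild type lungs. This group has 9 members: the smooth muscle actins Acta2 and Actg2, the tropomyosins Tpm1 and Tpm2 that lie along actin, the actin-binding regulators Cnn1 (calponin), Cald1 (caldesmon), Tagln (transgelin) and Smtn (smoothelin), and Lmod1 (leiomodin), which nucleates actin filaments. In knockout lungs 2 of the 9 fell and 0 rose, where 9.10% and 7.93% of all genes did, and in wild type lungs 1 rose and 0 fell, where 2.67% and 2.31% did. The level of Cnn1 was 38.9, 26.5, 33.0 and 22.9 CPM in knockout hypoxia samples, 36.4, 43.4, 44.8 and 37.5 CPM in wild type hypoxia samples, 47.7, 54.4, 50.7 and 52.3 CPM in knockout room air samples and 58.0, 42.0, 46.8 and 38.3 CPM in wild type room air samples. All knockout hypoxia values lay below all knockout room air values, while the wild type groups overlapped. The log2 fold change of Cnn1 was -0.76 ± 0.14 in knockout lungs (adjusted p = 0.00122) and -0.19 ± 0.14 in wild type lungs (adjusted p = 0.578). Between genotypes in hypoxia, Cnn1 differed by -0.42 ± 0.14 (adjusted p = 0.043), a call lost in 14 of 30 alternatives, where the adjusted p ranged over 0.00872 to 0.151.

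Actg2, the actin of enteric and some vascular smooth muscle, fell in knockout lungs as well. It stood at 17.2, 14.0, 17.2 and 10.8 CPM in knockout hypoxia samples, 20.8, 19.5, 19.8 and 12.9 CPM in wild type hypoxia samples, 22.9, 24.5, 22.3 and 22.1 CPM in knockout room air samples and 24.4, 17.0, 14.9 and 16.5 CPM in wild type room air samples. The knockout hypoxia samples were all below the knockout room air samples, and wild type hypoxia 4 was the low sample of its group. The fold change was -0.64 ± 0.17 in knockout lungs (adjusted p = 0.014) and -0.01 ± 0.17 in wild type lungs (adjusted p = 0.985). Without knockout hypoxia 4, the lowest sample, the knockout decrease of Actg2 was -0.51 and no longer called. Its adjusted p ranged over 0.00255 to 0.0677 across alternatives.

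Cald1, which blocks actin from myosin until calcium rises, went the other way. Its counts amounted to 289, 264, 273 and 266 CPM in knockout hypoxia samples, 281, 223, 262 and 278 CPM in wild type hypoxia samples, 224, 206, 196 and 209 CPM in knockout room air samples and 182, 127, 244 and 160.0 CPM in wild type room air samples. All hypoxia samples of the knockout were above all its room air samples, and in wild type 1 room air sample, number 3, lay within the hypoxia range. Cald1 rose by 0.55 ± 0.14 in wild type lungs (adjusted p = 0.0197). The estimate in knockout lungs was 0.39 ± 0.14 (adjusted p = 0.057), which was called in 9 of 30 alternatives, DESeq2, limma voom and the replicate block among them, with adjusted p between 0.000616 and 0.456. The wild type call was lost in 7 of 30 alternatives, with adjusted p between 0.000277 and 0.138 over all of them. Among the losses were the fits without wild type hypoxia 1, 3 or 4 or wild type room air 4. It was also lost without both knockout room air 3 and wild type room air 1, and without the 5 samples high in markers of other tissues.

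Acta2, the actin most used to mark vascular smooth muscle, was not called in any comparison, and its wild type estimate turned on single samples. It read 239, 184, 204 and 152 CPM in knockout hypoxia samples, 251, 283, 230.2 and 182 CPM in wild type hypoxia samples, 195, 191, 179 and 209 CPM in knockout room air samples and 224, 151, 148 and 143 CPM in wild type room air samples. Wild type room air 1, the sample with skeletal muscle transcripts, stood far above the other wild type room air samples and inside the hypoxia range. The wild type fold change was 0.50 ± 0.16 (adjusted p = 0.0766) with that sample and 0.68 without it, where Acta2 was called. It was called in 6 of 30 alternatives, DESeq2 and the fit without wild type hypoxia 4 among them, and its adjusted p ranged over 0.00793 to 0.26. In knockout lungs the estimate was 0.01 ± 0.16 (adjusted p = 0.975). Lmod1 and Mrvi1 were likewise called in wild type without that sample, at 0.78 and 0.65, against 0.63 and 0.52 with it. The wild type count of called members was then 8 of 31. Over all genes, leaving out 1 sample gave 484 to 1051 calls in wild type, against 785 with all samples.

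The other thin filament members, Tpm1, Tpm2, Tagln, Lmod1 and Smtn, were called in no comparison by edgeR on all samples. Tagln was at 193, 174, 173 and 150.3 CPM in knockout hypoxia samples and 129, 138, 124 and 150.3 CPM in knockout room air samples, where the lowest and the highest of the groups all but met. Its estimate of 0.35 ± 0.13 missed the threshold (adjusted p = 0.0686) and was called in 7 of 30 alternatives, DESeq2 among them. Lmod1 stood higher in all wild type hypoxia samples (15.9, 19.1, 16.3 and 16.6 CPM) than in any wild type room air sample (14.0, 9.27, 9.68 and 10.6 CPM), with an estimate of 0.63 ± 0.18 (adjusted p = 0.0525) that was called in 11 of 30 alternatives, DESeq2 and the replicate block among them. Tpm2 read 113 CPM in wild type room air 1 and 41.0 to 113 CPM over all samples. Without that sample its wild type hypoxia estimate turned from -0.17 to 0.31, and neither value was called. Smtn ranged over 27.8 to 59.0 CPM, Tpm1 over 315 to 497 CPM and Lmod1 over 9.27 to 19.8 CPM. The actins are nearly identical as proteins, and reads with several alignments were not counted in genes. How many reads of Acta2 and Actg2 this removed was not measured, so their levels are uncertain to that extent.

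**Figure D2:**
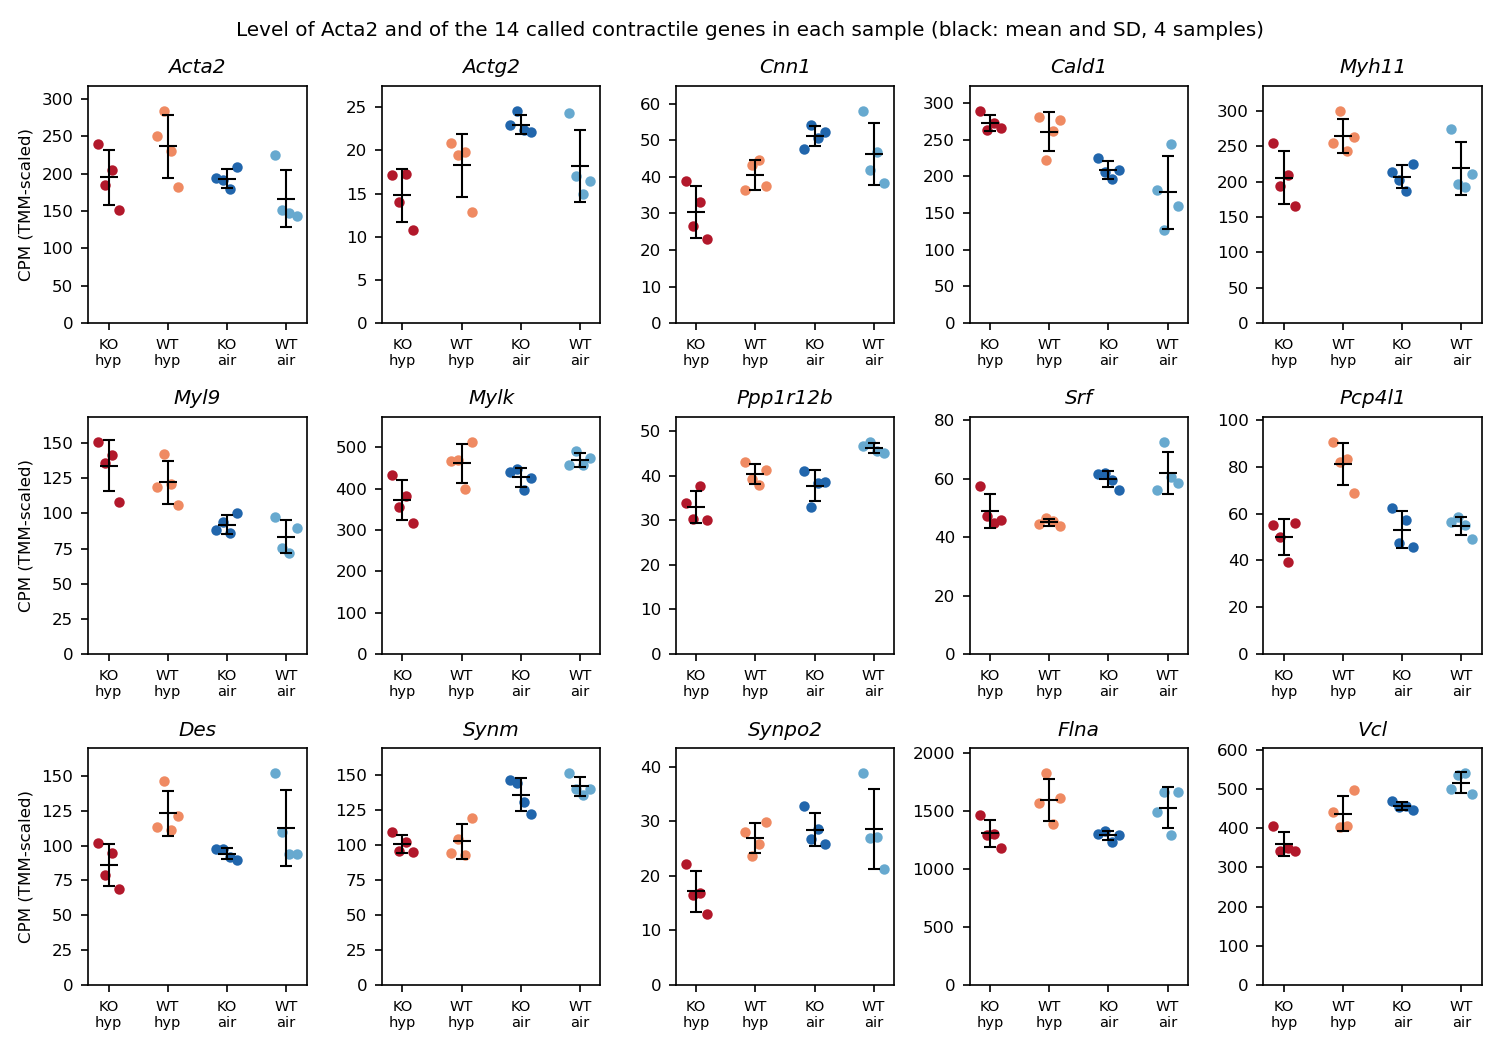
Points give the CPM of a gene in each sample on a linear axis from 0, with groups in the order knockout hypoxia, wild type hypoxia, knockout room air and wild type room air. Black marks give the mean and SD of 4 samples. Cnn1 and Synpo2 are lowest in knockout hypoxia, Pcp4l1 is highest in wild type hypoxia, and Myl9 is higher in both hypoxia groups.

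Among the 3 thick filament genes, the regulatory light chain rose after hypoxia in both genotypes by nearly the same amount. Myl9 encodes the light chain whose phosphorylation starts contraction, Myh11 the smooth muscle myosin heavy chain, and Myl6 the essential light chain, which non-muscle myosin also uses. Myl9 measured 150.5, 136, 141 and 108 CPM in knockout hypoxia samples, 119, 142, 121 and 106 CPM in wild type hypoxia samples, 87.9, 93.7, 85.7 and 100.5 CPM in knockout room air samples and 97.2, 75.2, 71.9 and 89.7 CPM in wild type room air samples. Every hypoxia sample exceeded every room air sample of its genotype. The increase was 0.54 ± 0.11 in knockout lungs (adjusted p = 0.00263) and 0.55 ± 0.11 in wild type lungs (adjusted p = 0.00701). The difference between the 2 effects was 0.00 ± 0.16. Myl9 kept its call in all alternatives but 1 in each genotype. The wild type call was lost with total counts as the only scaling. The knockout call was lost when the 5 samples high in markers of other tissues were left out. The log2 fold changes of Myl9 stayed between 0.46 and 0.63.

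Myh11 did not follow its light chain. It was at 255, 193, 209 and 165 CPM in knockout hypoxia samples, 254, 299, 243 and 263 CPM in wild type hypoxia samples, 214, 202, 187 and 225 CPM in knockout room air samples and 275, 197, 193 and 211 CPM in wild type room air samples. Wild type hypoxia held the highest value, knockout hypoxia overlapped both room air groups, and wild type room air 1 again stood above its group. Hypoxia gave an estimate of -0.01 ± 0.12 in knockout lungs and 0.28 ± 0.13 in wild type lungs, neither called. Without wild type room air 1 the wild type estimate was 0.40 (adjusted p = 0.0666). Between genotypes in hypoxia Myh11 was lower in knockout lungs by a log2 fold change of -0.37 ± 0.13 (adjusted p = 0.0421). That call was lost in 11 of 30 alternatives, with adjusted p up to 0.15. Myl6 was called in no comparison and ranged over 71.1 to 128 CPM.

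The kinase and phosphatase group has 5 members: Mylk (myosin light chain kinase), Ppp1r12a and Ppp1r12b (targeting subunits of the myosin phosphatase), Ppp1r14a (CPI-17, its inhibitor) and Hspb6 (the small heat shock protein HSP20, linked to relaxation). Hypoxia called 0 of the 5 in either genotype by edgeR, DESeq2 or limma voom. Over all genes edgeR called 17.0% in knockout and 4.98% in wild type lungs. An unadjusted p under 0.05 was reached by 2 in knockout and 1 in wild type lungs, beside 29.8% and 16.3% of all genes. Mylk and Ppp1r12b were lower in knockout than in wild type lungs in hypoxia. Mylk gave 432, 356, 382 and 318 CPM in knockout hypoxia samples, 466, 468, 399 and 512 CPM in wild type hypoxia samples, 441, 446, 396 and 425 CPM in knockout room air samples and 456, 492, 457 and 473 CPM in wild type room air samples. Wild type hypoxia 3, at 399 CPM, lay within the range of the hypoxic knockout samples, and the other hypoxic wild type samples were above them. The genotype difference in Mylk was -0.31 ± 0.09 (adjusted p = 0.0218), lost in 7 of 30 alternatives. Antisense RNAs overlap Mylk, and the sources used here do not give the strand setting of the counting.

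Ppp1r12b had similar genotype estimates in both oxygen conditions, and the one in hypoxia passed the test. Its values were 34.0, 30.2, 37.8 and 30.1 CPM in knockout hypoxia samples, 43.0, 39.2, 37.9 and 41.3 CPM in wild type hypoxia samples, 41.1, 33.0, 38.5 and 38.5 CPM in knockout room air samples and 46.7, 47.5, 45.6 and 45.1 CPM in wild type room air samples. Knockout samples lay below wild type samples without overlap in hypoxia and again in room air. The difference was -0.29 ± 0.09 in hypoxia (adjusted p = 0.0218) and -0.29 ± 0.09 in room air (adjusted p = 0.0804). The hypoxia call was lost in 6 of 30 alternatives, and the room air difference passed in 4 of 30. Ppp1r12a, the more abundant targeting subunit per length, was called nowhere and kept to 149 to 193 CPM over the 16 samples. Ppp1r14a was lower in all knockout hypoxia samples (24.4, 25.9, 26.8 and 27.7 CPM) than in any wild type hypoxia sample (29.3, 37.9, 29.8 and 32.5 CPM), with an estimate of -0.31 ± 0.12 that missed the threshold (adjusted p = 0.0678). Hspb6 had 14.5 CPM in wild type room air 1. Without that sample its wild type hypoxia estimate turned from -0.52 to 0.21, uncalled in both.

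Of the 2 transcription factors, Srf fell after hypoxia in both genotypes and Myocd was called in neither. Srf, serum response factor, binds the CArG box, and Myocd, myocardin, is its partner in smooth and cardiac muscle. Srf read 57.4, 47.3, 44.7 and 46.0 CPM in knockout hypoxia samples, 44.6, 46.4, 45.6 and 43.8 CPM in wild type hypoxia samples, 61.7, 61.8, 59.4 and 56.2 CPM in knockout room air samples and 56.0, 72.4, 60.5 and 58.5 CPM in wild type room air samples. In wild type all hypoxia samples were below all room air samples, and in knockout the hypoxia sample numbered 1 reached the room air range. The decrease was -0.29 ± 0.09 in knockout lungs (adjusted p = 0.0307) and -0.46 ± 0.09 in wild type lungs (adjusted p = 0.00412). The wild type call held in all 30 alternatives. The knockout call was lost in 7 of 30, among them those without knockout hypoxia 2, 3 or 4 or knockout room air 1, 2 or 3, with adjusted p up to 0.101. Myocd ranged over 1.92 to 5.59 CPM, and its estimates were -0.04 ± 0.27 in knockout lungs and 0.39 ± 0.28 in wild type lungs.

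The promoters of the called members that hold a CArG box are shown because this is the element through which Srf acts on the list, and Srf itself moved with hypoxia. They are RefSeq promoter windows of GRCm38.p6, 250 bases before to 50 bases after the start, written 5′ to 3′ on the gene's strand with CArG boxes in capitals. A box was counted only as an exact match of 10 bases, CC, then only A or T, then GG. Variants with a mismatch and boxes outside the window were not counted. The consensus of the box reads the same on both strands, so each match counts once.
Myl9, chr2:156775214-156775513, plus strand: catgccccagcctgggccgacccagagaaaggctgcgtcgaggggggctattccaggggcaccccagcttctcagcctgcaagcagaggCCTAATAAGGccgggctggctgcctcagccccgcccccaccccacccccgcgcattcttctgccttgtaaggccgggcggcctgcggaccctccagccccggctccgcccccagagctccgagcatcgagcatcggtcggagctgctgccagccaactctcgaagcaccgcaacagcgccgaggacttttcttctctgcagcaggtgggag
Vcl, chr14:20929148-20929447, plus strand: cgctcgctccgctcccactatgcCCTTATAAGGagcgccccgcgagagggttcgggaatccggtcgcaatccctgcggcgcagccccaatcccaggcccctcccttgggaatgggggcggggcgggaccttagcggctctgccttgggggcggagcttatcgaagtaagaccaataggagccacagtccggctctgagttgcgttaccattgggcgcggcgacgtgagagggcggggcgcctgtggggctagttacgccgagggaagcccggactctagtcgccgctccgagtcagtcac
Srf, chr17:46556113-46556412, minus strand: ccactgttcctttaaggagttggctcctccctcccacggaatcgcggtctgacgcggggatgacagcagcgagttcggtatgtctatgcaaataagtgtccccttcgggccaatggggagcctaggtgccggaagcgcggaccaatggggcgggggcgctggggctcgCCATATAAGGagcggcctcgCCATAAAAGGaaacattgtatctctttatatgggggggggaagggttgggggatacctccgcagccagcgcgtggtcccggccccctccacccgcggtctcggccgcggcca
The box lay at bases 161 to 152 before the start in Myl9 and 227 to 218 in Vcl. Srf had 2 boxes, at 82 to 73 and at 62 to 53. A promoter was listed for 27 of the 31 members, and 4 of these held such an exact match, the fourth being the uncalled Myl6. Myh11, Actg2, Tagln and Myocd had no listed promoter and were not searched. Among called members with a listed promoter, 3 of 12 held one. Over all 32851 listed promoters of that length the share was 1.63%. That share is per promoter, while members are counted per gene, with 33 promoters for the 27, so the figures are not directly comparable. The 3 genes with printed boxes did not move alike: Myl9 rose after hypoxia in both genotypes, Srf fell in both, and Vcl fell in knockout lungs. The wild type estimate of Vcl was -0.24, not called. A match describes these letters in this window and is not a measured binding site.

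Calcium and potassium handling genes held the member with the clearest difference between genotypes. This group comprises Pcp4l1, a small relative of the calmodulin-binding protein Pcp4, Kcnmb1 and Kcnma1, the subunits of the large-conductance calcium-activated potassium channel, Pln (phospholamban), which restrains the calcium pump of the sarcoplasmic reticulum, and Mrvi1 (IRAG), a target of the cGMP-dependent kinase that lowers calcium release. Pcp4l1 came to 55.4, 50.0, 39.3 and 56.0 CPM in knockout hypoxia samples, 90.5, 82.2, 83.4 and 68.7 CPM in wild type hypoxia samples, 62.3, 47.4, 57.2 and 45.9 CPM in knockout room air samples and 56.3, 58.6, 55.2 and 49.3 CPM in wild type room air samples. Wild type hypoxia stood apart from all other groups, with its lowest sample at 68.7 CPM above the highest of the rest, 62.3 CPM. Pcp4l1 rose by 0.57 ± 0.12 in wild type lungs (adjusted p = 0.00704), while the knockout estimate was -0.08 ± 0.12 (adjusted p = 0.697).

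In hypoxia, Pcp4l1 was lower in knockout than in wild type lungs by a log2 fold change of -0.69 ± 0.12 (adjusted p = 0.000928), and in room air the estimate was -0.04 ± 0.12. Both of its calls held in all 30 alternatives. The difference between its hypoxia effects was -0.65 ± 0.17, with an adjusted p of 0.0836 by edgeR. DESeq2 gave 0.0205, and the range over alternatives was 0.0205 to 0.193. The other 4 genes of this group were called in no comparison. Their estimates in wild type hypoxia were all positive, 0.52 for Kcnmb1, 0.40 for Kcnma1, 0.16 for Pln and 0.52 for Mrvi1. Pln, which heart muscle expresses strongly, read 32.0 CPM in knockout room air 3, the sample with the highest heart marker sum. Without that sample its knockout hypoxia estimate was -0.26, against -0.80 with it.

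**Figure D3:**
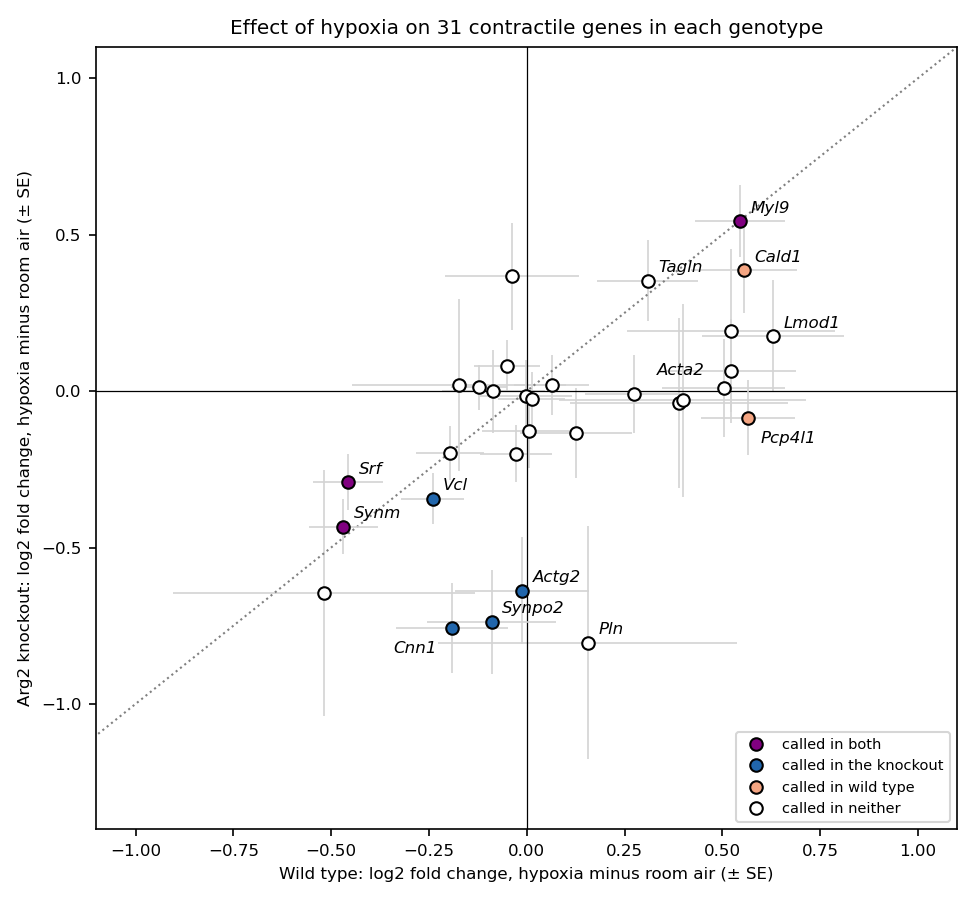
Log2 fold changes of hypoxia against room air, with standard errors, in Arg2 knockout lungs (vertical axis) against wild type lungs (horizontal axis) for the 31 members. Myl9, Srf and Synm were called in both genotypes and lie near the dotted line of equal effects. Cnn1, Synpo2 and Actg2 lie below it, at -0.76, -0.74 and -0.64 in knockout lungs.

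Calls among intermediate filament, adhesion and crosslinking genes were all in the lower direction. This group has 7 members, Des (desmin) and Synm (synemin) of the intermediate filaments, Synpo2 (myopodin), Flna (filamin A), Vcl (vinculin), Pgm5 (aciculin) and Csrp1 (a LIM protein). In knockout lungs 3 of the 7 fell after hypoxia, beside 9.10% of all genes, and in wild type 1 of 7 fell, beside 2.31%. In hypoxia, 4 of 7 were lower in knockout than in wild type lungs, beside 12.1% of all genes. Synm fell in both genotypes by similar amounts. It was measured at 109, 95.9, 102 and 95.4 CPM in knockout hypoxia samples, 94.2, 104, 92.8 and 119 CPM in wild type hypoxia samples, 147, 145, 131 and 122 CPM in knockout room air samples and 151, 140.2, 136 and 141 CPM in wild type room air samples. All hypoxia samples lay below all room air samples of the same genotype. The fold change was -0.43 ± 0.09 in knockout lungs (adjusted p = 0.0019) and -0.47 ± 0.09 in wild type lungs (adjusted p = 0.00268), with a difference of 0.03 ± 0.12 between the effects. Both calls held in all 30 alternatives.

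Synpo2, an actin-bundling partner of alpha-actinin and filamin, also fell in knockout lungs. The samples gave 22.1, 16.6, 16.9 and 13.0 CPM in knockout hypoxia samples, 28.1, 23.6, 25.9 and 30.0 CPM in wild type hypoxia samples, 32.8, 26.9, 28.6 and 25.9 CPM in knockout room air samples and 38.8, 26.9, 27.1 and 21.3 CPM in wild type room air samples. Knockout hypoxia samples were below all samples of the wild type hypoxia and knockout room air groups. The knockout fold change was -0.74 ± 0.17 (adjusted p = 0.00446) and the wild type one -0.09 ± 0.16 (adjusted p = 0.857). Without wild type room air 1, the highest sample of its group, the wild type estimate of Synpo2 was 0.10, also uncalled. In hypoxia, Synpo2 differed between genotypes by -0.65 ± 0.17 (adjusted p = 0.0108). The difference between its hypoxia effects, -0.65 ± 0.23, missed the threshold (adjusted p = 0.208). Its calls in knockout hypoxia and between genotypes in hypoxia held in all 30 alternatives.

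Vcl links actin to integrin adhesions, and it fell in knockout lungs as well. Its level came to 406, 342, 349 and 340.3 CPM in knockout hypoxia samples, 439.9, 402, 406 and 498 CPM in wild type hypoxia samples, 469, 453, 457 and 446 CPM in knockout room air samples and 500.2, 537, 539 and 487 CPM in wild type room air samples. All knockout hypoxia samples lay below all knockout room air samples. Wild type hypoxia 4 overlapped wild type room air, and knockout hypoxia 1 overlapped the hypoxic wild type samples. The fold change was -0.34 ± 0.08 in knockout lungs (adjusted p = 0.00592) and -0.24 ± 0.08 in wild type lungs (adjusted p = 0.107). The wild type decrease was called in 3 of 30 alternatives. By edgeR the difference between the 2 effects was -0.10 (adjusted p = 0.759). The genotype difference in hypoxia, -0.28 ± 0.08 (adjusted p = 0.0198), was lost in 9 of 30 alternatives.

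Des and Flna were called between genotypes in hypoxia. Des, the muscle intermediate filament, was at 102, 78.7, 94.9 and 68.9 CPM in knockout hypoxia samples, 114, 146, 111 and 121 CPM in wild type hypoxia samples, 97.8, 97.9, 91.5 and 89.9 CPM in knockout room air samples and 152, 110.1, 94.2 and 94.1 CPM in wild type room air samples. Knockout hypoxia samples were all below wild type hypoxia samples, and wild type room air 1 was again the high sample of its group. The wild type hypoxia estimate of Des was 0.13 with that sample and 0.31 without it, neither called. The difference was -0.52 ± 0.14 (adjusted p = 0.0163). Without knockout hypoxia 4, and also without wild type hypoxia 2, it was -0.42 and no longer called, and the adjusted p over alternatives ranged from 0.0047 to 0.0622. Flna, which crosslinks actin in many lung cell types, had 1459.7, 1291, 1303 and 1178 CPM in knockout hypoxia samples, 1570.5, 1822, 1382 and 1607 CPM in wild type hypoxia samples, 1304, 1324, 1235 and 1296 CPM in knockout room air samples and 1487, 1659, 1294 and 1664 CPM in wild type room air samples. The groups overlapped in hypoxia, and the difference of -0.29 ± 0.10 (adjusted p = 0.0388) was lost in 11 of 30 alternatives. Pgm5 and Csrp1 were called nowhere. Pgm5 kept to 81.2 to 104 CPM and Csrp1 to 448 to 580.4 CPM.

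Per kilobase of exon, the members spanned a wide range of levels. Csrp1 was the highest at 261 CPM per kilobase as a mean over 16 samples, then Flna at 152, Myl9 at 92.8, Acta2 at 90.1 and Tagln at 76.7. With SDs over samples of 21.3 for Myl9 and 18.4 for Acta2, the order of those neighbours is not distinct. Kcnma1 was the lowest at 0.155, below Myocd at 0.54 and Kcnmb1 at 1.16. Csrp1, Flna and Vcl are not restricted to muscle, so their level in whole lung includes other cells. Of the 4 groups, the highest mean CPM was in knockout hypoxia for 6 members, wild type hypoxia for 12, knockout room air for 3 and wild type room air for 10. The lowest was in knockout hypoxia for 14 members, wild type hypoxia for 2, knockout room air for 5 and wild type room air for 10. Knockout hypoxia was thus lowest for 45.2% of members, against 34.0% of all genes, and wild type hypoxia highest for 38.7%, against 21.4%.

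In 3 groups, 1 sample was the highest for many members at once. Knockout hypoxia 1 was the highest of its group for 20 of 31 members, or 64.5%, against 27.9% of all genes. Knockout hypoxia 4 was the lowest for 19 members, or 61.3%, against 23.6% of all genes. Wild type hypoxia 2 was the highest of its group for 15 members, or 48.4%, against 27.3%, and wild type room air 1 for 17, or 54.8%, against 20.1%. Knockout room air had no such sample, with 6, 10, 6 and 9 members highest and 9, 6, 8 and 8 lowest in its samples 1 to 4. The summed CPM of the 31 members was 5281 in knockout hypoxia 1 and 4376 in knockout hypoxia 4.

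**Figure D4:**
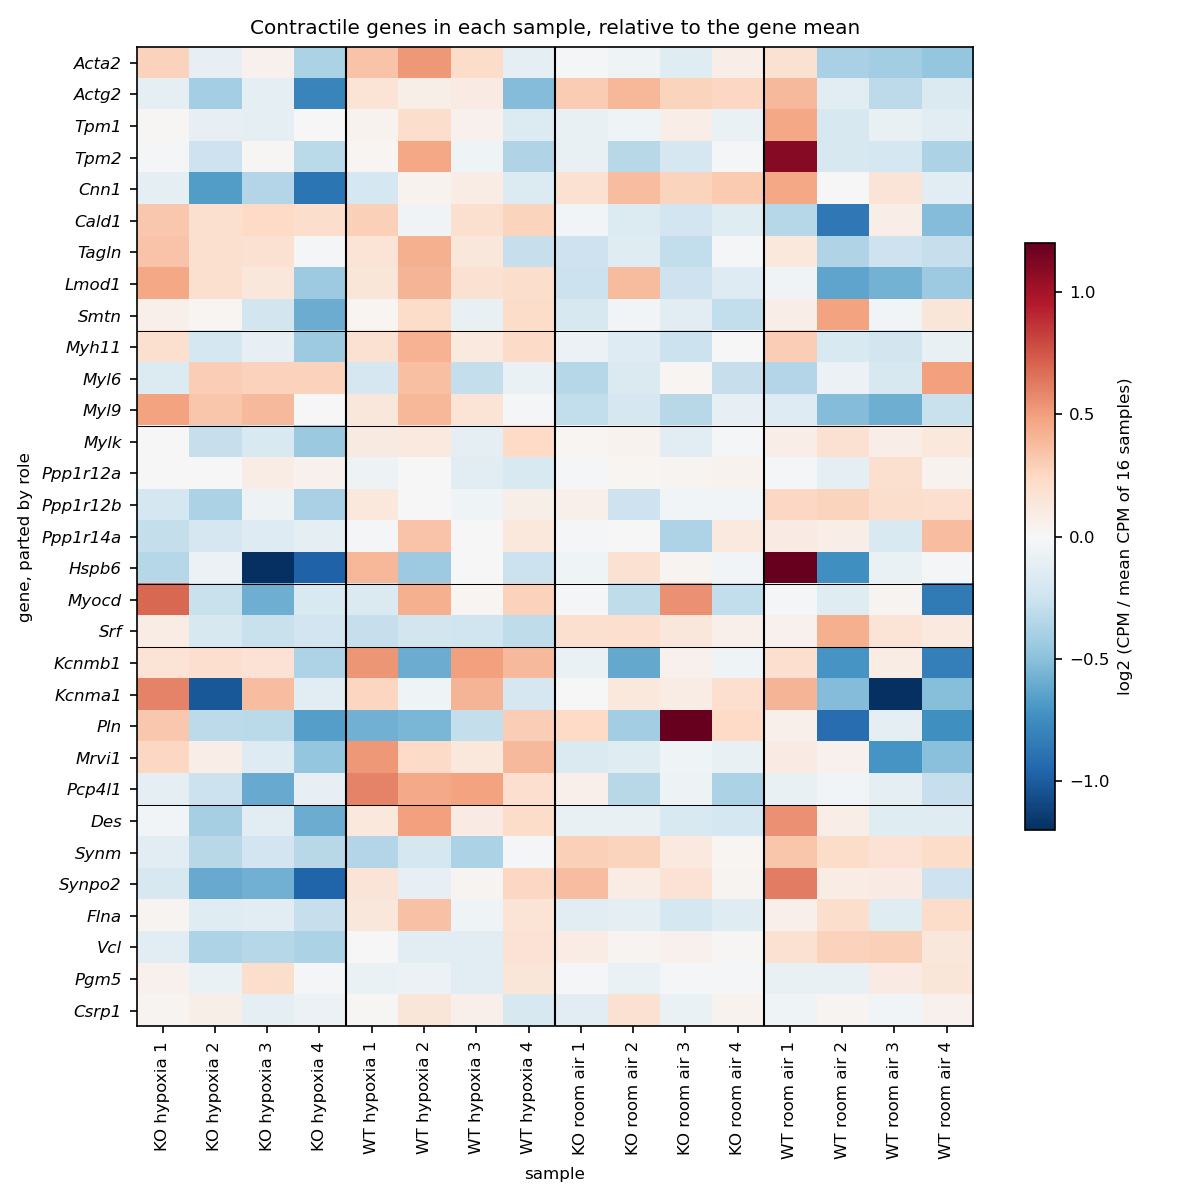
Colour gives log2 of each member's CPM over its mean across 16 samples, with samples in columns by group and genes in rows by role. Knockout hypoxia 1 and knockout hypoxia 4 differ across many rows, and wild type room air 1 shows high Tpm2 and Hspb6, while knockout room air 3 shows high Pln.

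Heart muscle markers moved with the decreases in knockout lungs. Of 11 heart markers tested, 6 were lower by edgeR after hypoxia in knockout lungs, beside 9.10% of all genes. In wild type lungs 0 were lower, beside 2.31%, and 2 had an unadjusted p under 0.05, beside 16.3%. Between genotypes in hypoxia 1 of 11 was lower, beside 12.1% of all genes. Heart muscle also expresses Des, Synm, Synpo2, Vcl and Pln. With knockout room air 3 and wild type room air 1 left out, 6 of 31 members were called in knockout lungs, all 6 of them among the original 7. Cnn1 was then at -0.76, Synpo2 at -0.74, Actg2 at -0.65, Synm at -0.45 and Vcl at -0.34. Srf was at -0.29, as with all samples, and was not called (adjusted p = 0.0591). With all 5 samples high in heart, skeletal muscle, pancreas or thymus markers left out, 2 samples stayed in each knockout group. Then 5 members were called in knockout lungs, 4 of them as before. Cnn1 was at -0.87, Synpo2 at -1.01, Synm at -0.56 and Srf at -0.44, and Hspb6, at -1.25, was called in addition. Actg2 (-0.78), Vcl (-0.42) and Myl9 (0.46) were not called, at adjusted p of 0.0677, 0.0701 and 0.119, and their estimates with all samples were -0.64, -0.34 and 0.54. The part of the remaining heart transcripts in these results was not tested.

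**Figure D5:**
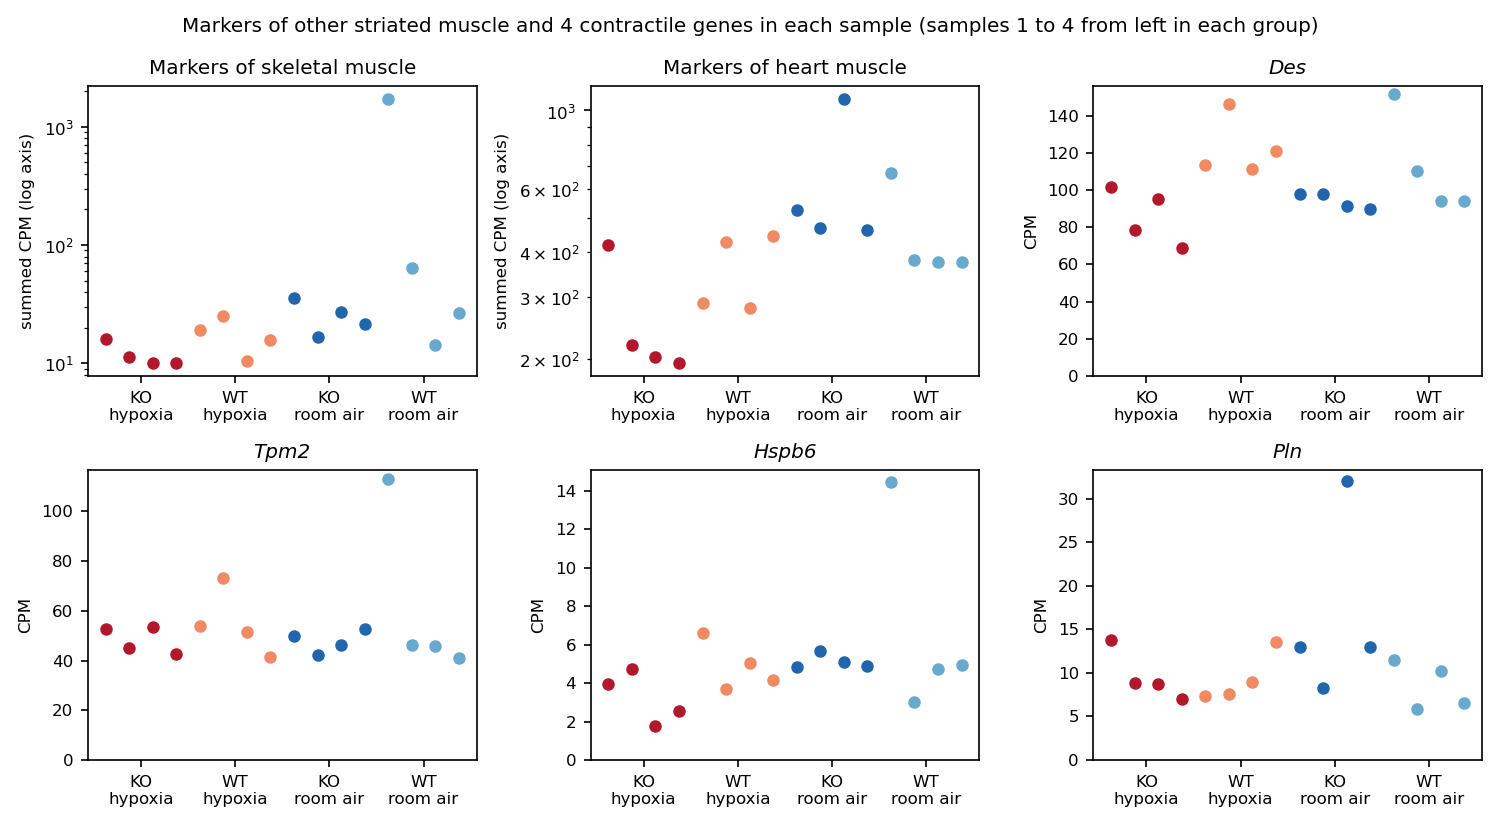
Summed CPM of skeletal and heart muscle markers (log axes) and CPM of Des, Tpm2, Hspb6 and Pln (linear axes) in each sample, by group. Wild type room air 1 holds 1714.7 CPM of skeletal muscle markers with the highest Tpm2 and Hspb6, and knockout room air 3 holds the highest heart marker sum with the highest Pln.

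Markers of other cells that share contractile genes moved too. Pericytes, the mural cells of capillaries, had 3 of 9 markers higher after hypoxia in knockout lungs, beside 7.93% of all genes. In wild type lungs 2 of 9 were higher, beside 2.67%. Pericyte marker sums were 922 to 1091 CPM in knockout hypoxia samples, 1005 to 1164 CPM in wild type hypoxia samples, 866 to 966 CPM in knockout room air samples and 848 to 1139.5 CPM in wild type room air samples. Platelets, which also contain Vcl, Flna and Myl9, had 2 of 7 markers lower by edgeR after hypoxia in knockout lungs, beside 9.10% of all genes. In wild type lungs 0 were lower, beside 2.31%. At an unadjusted p under 0.05 there were 7 in knockout and 0 in wild type lungs, beside 29.8% and 16.3% of all genes. Platelet marker sums were 68.3 to 90.8 CPM in knockout hypoxia samples, 59.2 to 81.5 CPM in wild type hypoxia samples, 111 to 144 CPM in knockout room air samples and 58.15 to 94.9 CPM in wild type room air samples. The part of platelet transcripts in the decreases in knockout lungs was not tested. Of 6 endothelial markers, 3 were higher and 2 lower in knockout than in wild type lungs in hypoxia, beside 11.0% and 12.1% of all genes. Endothelial sums were 3957 to 4285 CPM in knockout hypoxia samples and 3589 to 4029.6 CPM in wild type hypoxia samples. Of 8 fibroblast markers, 4 were lower in knockout than in wild type lungs in hypoxia, beside 12.1% of all genes. Fibroblast sums were 1444 to 2055 CPM in knockout hypoxia samples and 1789 to 2243 CPM in wild type hypoxia samples. The part of endothelial and fibroblast transcripts in the lower levels of the 9 members between genotypes in hypoxia was not tested.

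The signalling genes upstream of the apparatus moved in both directions between genotypes. Of 16 genes of contraction signalling and transcription, hypoxia called 1 higher and 1 lower in knockout lungs, or 12.5% against the background of 17.0%. These were Rock2 (0.34), a kinase that inhibits the myosin phosphatase, and Arhgef12 (-0.26), an activator of RhoA. DESeq2 and limma voom each called 5 of the 16 in knockout lungs. In wild type lungs 1 was lower, beside 2.31% of all genes, again Arhgef12 (-0.34). Between genotypes in hypoxia 6 of 16 were called, or 37.5% against the background of 23.0%, with 2 higher and 4 lower in knockout lungs. Rock2 was 494, 474, 513 and 556 CPM in knockout hypoxia samples against 330.2, 295, 372 and 344 CPM in wild type hypoxia samples, with no overlap, a difference of 0.60 ± 0.11 (adjusted p = 0.00149). Arhgef1, another RhoA activator, was 73.4, 62.5, 59.3 and 53.0 CPM in knockout hypoxia samples against 93.1, 91.3, 81.4 and 117 CPM in wild type hypoxia samples, a difference of -0.62 ± 0.13 (adjusted p = 0.00354). Camk2g (-0.43) and the myocardin-related cofactor Mkl1 (-0.56) were lower as well.

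Among 18 adhesion and dense plaque partners, hypoxia called 3 higher and 1 lower in knockout lungs, or 22.2% against 17.0% of all genes. In wild type lungs edgeR called 0, against 4.98% of all genes. There, 3 had an unadjusted p under 0.05, beside 16.3% of all genes, while DESeq2 called 1 and limma voom 0. In knockout lungs the higher ones were Lims2, Itga1 (0.34) and Itgb1 (0.32), and the lower one was Pdlim3 (-0.53), a LIM protein of muscle. Lims2, an adaptor of integrin adhesions, was 141, 135, 135 and 123 CPM in knockout hypoxia samples, 68.5, 81.5, 76.9 and 96.9 CPM in wild type hypoxia samples, 68.1, 83.0, 75.8 and 85.0 CPM in knockout room air samples and 69.8, 72.8, 84.2 and 92.1 CPM in wild type room air samples. All knockout hypoxia samples lay above every other sample. Lims2 rose by 0.78 ± 0.11 in knockout lungs (adjusted p = 6.35e-05), the estimate in wild type lungs was 0.03 ± 0.11, and the difference between the effects was 0.75 ± 0.15 (adjusted p = 0.0298). That last call was lost when any of knockout hypoxia 1, 2 or 3, wild type hypoxia 1 or 3, knockout room air 1 or 3 or wild type room air 4 was left out. Between genotypes in hypoxia 7 of the 18 were called, or 38.9% against 23.0% of all genes, with 3 higher and 4 lower. Lims2 (0.72) and Pdlim5 (0.42) were higher in knockout lungs, while Tln1 (-0.47) and Actn1 (-0.36) were lower.

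Of 12 non-muscle isoforms of the contractile proteins, hypoxia called 1 higher and 1 lower in knockout lungs, Tpm4 (0.48) and Actb (-0.22). That was 16.7%, against 17.0% of all genes. In wild type lungs edgeR called 0, against 4.98% of all genes, DESeq2 called 1 and limma voom 0. There, 2 had an unadjusted p under 0.05, beside 16.3% of all genes. Between genotypes in hypoxia 4 of 12 were called, or 33.3% against 23.0% of all genes. Tpm4 (0.37) and Cnn3 (0.27) were higher in knockout lungs, and Myh9 (-0.34) and Cnn2 (-0.25) lower. Tpm4, a non-muscle tropomyosin, read 618, 676, 688 and 729.6 CPM in knockout hypoxia samples and 568, 554, 554 and 416 CPM in wild type hypoxia samples. In room air, 0 genes of the 3 lists were called between genotypes by edgeR, against 0.0761% of all genes. At an unadjusted p under 0.05 there were 6 of 16 signalling genes, 5 of 18 adhesion partners and 4 of 12 non-muscle isoforms. Over all genes that share was 21.6%. DESeq2 and limma voom each called 2 signalling genes and 0 of the others. Leaving out 1 sample moved the hypoxia counts between genotypes over 3 to 8 for signalling genes, 2 to 8 for adhesion partners and 2 to 5 for non-muscle isoforms. The count over all genes moved over 2093 to 4337.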

How the data were processed

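Per the labels' protocols, ribosomal RNA was removed from total RNA of snap-frozen whole lung, and directional libraries were made. Trim Galore, TopHat2, HTSeq and mm10 are named in the submitters' processing notes, without versions. Neither the annotation nor the strand setting is stated there. The authors deposited raw read counts by gene symbol for 20 libraries. Another 5 lines naming no gene, which held 74.41% to 93.9% of all counts, were left out. Where 2 room air libraries had 1 number and the letters A and B (4 pairs), they were summed, giving 16 samples. Their chi-square per degree of freedom, thinned to 2936781 counts, was 1.518 to 2.06, against 3.888 or more to other numbers of the group.

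Counts were fitted in R 4.3.3 with edgeR 4.0.16 (TMM, filterByExpr with minimum count 10 and total 15, robust quasi-likelihood, 4 groups, no covariate, two-sided, Benjamini-Hochberg over 15766 genes), and 8296 genes were removed by the filter. The biological coefficient of variation was 15.8%. The script was tested on simulated data. CPM uses TMM-scaled library sizes. A count of 0 would allow up to 0.0474 to 0.315 CPM (3 counts, counting error only). Coordinates and lengths come from GENCODE vM21 (GRCm38, the assembly of mm10), and promoters from RefSeq. All 31 members are described, in full where called in at least 1 comparison. Other genes of the pathway are named only where called, at most 4 per list and comparison. The members, lists and rules were chosen with earlier results of these data known. Alternatives used DESeq2 1.42.0, limma 3.58.1, other scalings, no filter, A or B libraries, a replicate block, a GC correction and left-out samples. Several members overlap genes on the other strand, such as Tagln with Pcsk7 and Vcl with Ap3m1.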

Additional observations from a re-analysis of the deposited data

Results flagged for a closer look

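In 10 of 124 tests of a member in a group of 4 samples, 1 sample stood apart from the other 3. Chance alone marks about 1 in 20 such groups. In wild type room air, sample 1 was high for 4 members. Acta2 was at 224.4 CPM against 143 to 151 CPM in the others, Tpm1 at 497 against 315 to 339 CPM, Tpm2 at 113 against 41.0 to 46.4 CPM, and Hspb6 at 14.5 against 3.01 to 4.92 CPM. The same sample held 1714.7 CPM of skeletal muscle markers. The part of those transcripts in the 4 values was not tested.

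In knockout hypoxia, Vcl was high in sample 1 at 406 CPM against 340.3 to 349 CPM, and Myl6 was low there at 80.8 CPM against 109 to 111 CPM. Kcnmb1 was low in knockout hypoxia 4 at 3.76 CPM against 5.46 to 5.60 CPM. Actg2 was low in wild type hypoxia 4 at 12.9 CPM against 19.5 to 20.8 CPM. In knockout room air 2, Lmod1 was high at 18.7 CPM against 12.0 to 12.9 CPM, and Pgm5 was low at 84.9 CPM against 87.8 to 88.0 CPM.

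Among the other pathway genes, the effect of hypoxia on Lims2 differed between the genotypes by 0.75 on the log2 scale in edgeR's test of that difference. The call was lost without knockout hypoxia 1, 2 or 3, wild type hypoxia 1 or 3, knockout room air 1 or 3, or wild type room air 4. It was also lost with B libraries only, and without all 5 samples high in markers of other tissues.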

How the results depend on the processing

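No called value changed sign under any of the 30 alternatives, 3 of which were chosen after seeing the data. Of the 21 calls on members, 8 held under all of them, 5 were lost under 1 or 2, and 8 under 6 or more. The wild type hypoxia count of 5 became 8 with DESeq2 and 8 with the replicate block. Knockout against wild type in hypoxia went down to 3 from 9 with total counts only and to 3 with the GC trend removed. In room air the count of 0 became 1 with DESeq2, 1 with limma voom, and 3 without the samples with the lowest scaling factor and the lowest share of reads in genes. For the difference between the effects, 0 became 1 with DESeq2. Leaving out 1 sample gave 4 to 8 calls in wild type hypoxia, 5 to 8 in knockout hypoxia, 2 to 10 between genotypes in hypoxia, 0 to 3 in room air and 0 to 0 for the difference. The causes were not tested. Over all genes the counts of calls, as reported and across alternatives, were 785 with 400 to 1215 in wild type hypoxia, 2685 with 1035 to 3424 in knockout hypoxia, 3633 with 2026 to 4337 between genotypes in hypoxia, 12 with 0 to 2524 in room air and 79 with 26 to 474 for the difference. Sample numbers gave no clear pairing, although weak correlations cannot exclude one. Correlations were -0.14 to 0.17 for the 24 same-numbered pairs, with a median of 0.0168 against -0.0072 for other pairs. Of the 24, 4 were over 0.1, and the own number was the best match in 15 of 48 cases. The replicate block gave 8, 8, 10, 0 and 0 calls in wild type hypoxia, knockout hypoxia, hypoxia between genotypes, room air and the difference. Without the block these were 5, 7, 9, 0 and 0.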
